A study of Mus musculus with 8 samples.

Results

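The mir-322 cluster is a group of 7 microRNA hairpins on the mouse X chromosome: mmu-mir-322, mmu-mir-503, mmu-mir-351, mmu-mir-542, mmu-mir-450a-2, mmu-mir-450a-1 and mmu-mir-450b. They were taken by precursor name from a table of 1181 mouse miRNA precursors. A precursor was compared between groups if its linear value was at least 10 in at least 4 libraries; 359 of 1181 passed, among them 6 of the 7 members, and mmu-mir-450a-1 did not. Small RNA was sequenced from myoblasts, the proliferating precursors of muscle fibres, of C57BL/6J mice labelled old (4 libraries) or young (4 libraries), numbered by mouse. No treatment or genotype change is given in the labels, nor an age in months. The series concerns microRNAs in old skeletal muscle, and the comparison is old against young.

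A microRNA is cut as a short duplex from a hairpin precursor, and the strand that is kept guides repression of messenger RNAs that pair with its seed, bases 2 to 8. miR-322, the rodent counterpart of human miR-424, and miR-503 are known from mouse myoblasts, where they rise as the cells leave the cell cycle and differentiate, and repress the phosphatase gene Cdc25a. miR-351 is known from a mouse myoblast line to repress the cell cycle gene E2f3. miR-542-3p is known from human cells to repress BIRC5, which encodes survivin.

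All 7 hairpins lie on the minus strand of chromosome X between 53047997 and 53054349 (mm10), a span of 6353 bases. mmu-mir-322 comes first (53054255 to 53054349), followed after 200 bases by mmu-mir-503 (53053984 to 53054054) and after 630 more by mmu-mir-351 (53053255 to 53053353). A gap of 3767 bases separates these from mmu-mir-542 (53049403 to 53049487), with mmu-mir-450a-2 (53048299 to 53048367), mmu-mir-450a-1 (53048154 to 53048244) and mmu-mir-450b (53047997 to 53048078) beyond it. The first 3 lie within the RefSeq long non-coding RNA C430049B03Rik. In the GENCODE annotation the 7 overlap no gene other than their own.

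The mature sequences show which members can be read as relatives (RefSeq, GRCm38.p6; the capitals mark the seed). The values below are per hairpin and do not separate its 5p and 3p arms.

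miR-322-5p: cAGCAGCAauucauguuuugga

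miR-503-5p: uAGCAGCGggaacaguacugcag

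miR-351-5p: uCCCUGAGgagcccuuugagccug

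miR-542-3p: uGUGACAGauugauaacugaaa

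miR-450a-5p, the same from both 450a hairpins: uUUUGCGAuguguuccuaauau

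miR-450b-5p: uUUUGCAGuauguuccugaaua

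The seed of miR-322-5p is that of the miR-15 and miR-16 family outside the cluster, and 10 of 1679 mature names in the table carry it. miR-503-5p shares bases 2 to 7 with them and differs at base 8; it alone carries its full seed. miR-351-5p has the seed of miR-125a and miR-125b, with 5 names in all. Beyond the seed these differ: miR-351-5p matches miR-125a-5p at 10 of 24 positions, aligned from the first base, and miR-322-5p matches miR-15a-5p at 15 of 22. For comparison, relatives from outside the cluster were as follows.

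miR-15a-5p: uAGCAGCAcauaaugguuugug

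miR-16-5p: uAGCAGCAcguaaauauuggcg

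miR-125a-5p: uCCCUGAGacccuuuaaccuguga

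The 3p strands of the 450a and 450b hairpins are alike as well. miR-450a-1-3p and miR-450b-3p share a seed and differ at 2 of 22 positions, while miR-450a-2-3p differs from miR-450a-1-3p at 6 of 22.

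miR-450a-1-3p: aUUGGGAAcauuuugcauaaau

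miR-450b-3p: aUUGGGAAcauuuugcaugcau

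miR-450a-2-3p: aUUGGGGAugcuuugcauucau

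The deposited values are log2 abundances, and their steps behave like those of RPKM, reads scaled to hairpin length and library size. On that reading the libraries held about 25060000 to 27990000 reads (old) and 29910000 to 39450000 reads (young). Myoblast and muscle miRNAs were present in every library, with mir-206 at 14.78 to 16.52 and mir-133a-1 at 11.91 to 14.92. mir-133b was at 10.17 to 13.28, and mir-486 and mir-378a averaged 21.35 and 17.06. In contrast, mir-1a-1, a marker of differentiated fibres, was at 0 to 3.22 and mir-1a-2 at 0 to 2.47. How far the cells had differentiated was not tested. Of the blood and immune markers, mir-144, mir-223 and mir-142 were at 0 in all 8 libraries. mir-150 was at 1.04 to 4.47, and mir-451a was above 0 only in young 1, at 0.89. Of the epithelial markers, mir-200a and mir-429 were at 0 throughout and mir-205 was at 4.78 to 8.02. Of the fibroblast and smooth muscle markers, mir-143 was at 14.06 to 15.56. Typical miRNAs stood higher in young 4 than elsewhere: the median of the 359 miRNAs was 0.58 above its mean over libraries there, and 0.35 above it in old 4, against -0.33 to 0.09 in the other 6.

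The hairpins of this cluster differed widely in level, and nearly all of its signal came from mmu-mir-351. On the per-length scale mmu-mir-351 averaged a log2 abundance of 17.26 over the 8 libraries, rank 9 of 1181 precursors. mmu-mir-322 averaged 9.18 (rank 135) and mmu-mir-503 averaged 8.88 (rank 143), although they are its nearest neighbours on that side. The more distant mmu-mir-542 averaged 5.90, mmu-mir-450b 4.85, mmu-mir-450a-2 3.35 and mmu-mir-450a-1 3.09. The level of mmu-mir-351 was above that of mmu-mir-322 by 8.09 ± 0.45 on the log2 scale (SD, n = 8 libraries), a ratio of 272. It held 98.8% to 99.5% of the summed linear values of the 7 hairpins in each library. Whether different mature sequences entered the libraries equally well was not tested, so these are ratios of library values and not of molecules. On the per-length scale mmu-mir-503 was above its neighbour mmu-mir-322 in old 1 and below it in the other 7 libraries. The 2 hairpins are 71 and 95 bases long. In recovered reads mmu-mir-322 was the higher in old 1 as well (1419 against 1153). The 450a hairpins also changed order from library to library, with mmu-mir-450a-2 minus mmu-mir-450a-1 from -0.92 to 1.31. Both give the same miR-450a-5p, and how shared reads were split is not given in the labels. At equal reads the shorter mmu-mir-450a-2 would stand 0.40 higher. Counts were low, with overlapping Poisson 95% intervals in old 4 (2.2 to 13.06 and 8.4 to 24.74 reads).

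**Figure D1:**
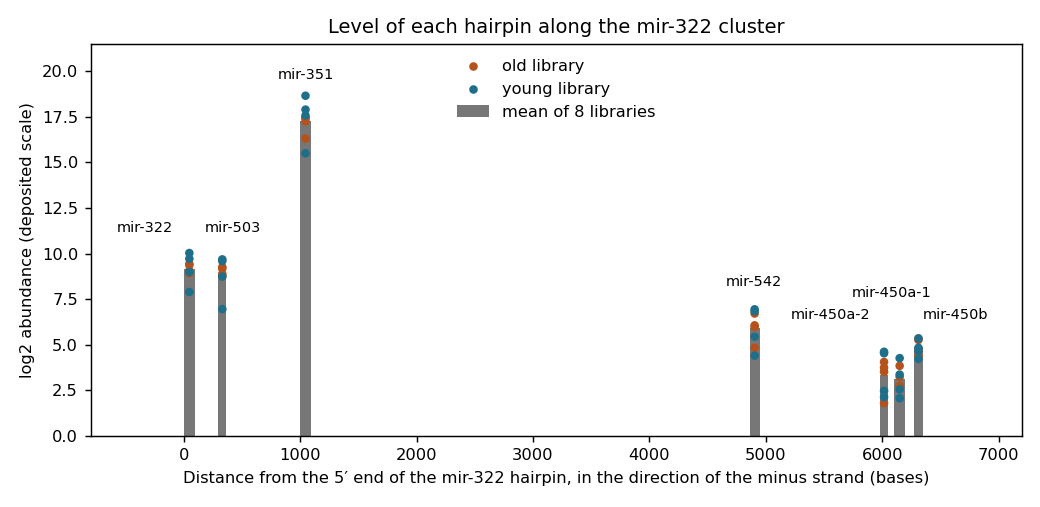
Mean log2 abundance of each hairpin (bars, drawn to the hairpin's length) and single libraries (points) against distance in bases from the start of mir-322. mir-351, the third hairpin, stands at a mean of 17.26, while its neighbours mir-322 and mir-503 stand at 9.18 and 8.88 and the distal group between 3.09 and 5.90.

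The difference in level bears on precision. mmu-mir-351 had at least 180987 recovered reads in every library and mmu-mir-503 at least 346.3. mmu-mir-542 had 60.6 reads at its lowest, in old 4, and mmu-mir-450b 44.9, in old 2. mmu-mir-450a-2 had 6 reads in old 4 (exact Poisson 95% interval 2.2 to 13.06), 9 in young 1 and 55 in young 3. mmu-mir-450a-1 ranged from 14.9 reads in old 4 to 56.9 in young 3. These intervals cover counting error only, since reads are not independent molecules.

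On the deposited scale the cell cycle exit pair, mmu-mir-322 and mmu-mir-503, was tightly grouped in old mice and spread out in young mice. Old 4 was the lowest old library for both, and the median of all 359 miRNAs stood 0.35 above its mean there. Set against that median, old 4 lay further below the other old libraries than on the deposited scale. mmu-mir-322 stood at a log2 abundance of 9.06, 9.43, 9.37 and 8.92 in old 1 to old 4 and at 8.99, 10.03, 9.71 and 7.89 in young 1 to young 4. Young 2 and young 3 were above every old library and young 4 was below every one, so the groups overlapped. The means were 9.20 ± 0.24 for old and 9.16 ± 0.95 for young mice (SD, n = 4 each). The difference, old minus young, was 0.04 (SE 0.48; 95% interval -1.03 to 1.11; limma, adjusted p = 0.995; two-sided exact permutation p = 0.943).

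mmu-mir-503 had young 2 and young 3 highest and young 4 lowest, as mmu-mir-322 did, with young 4 further below the rest. It stood at 9.18, 8.88, 9.26 and 8.75 in old 1 to old 4 and at 8.74, 9.68, 9.59 and 6.95 in young 1 to young 4. The 4 old libraries lay within 0.51 of each other and the young ones within 2.73. The means were 9.02 ± 0.24 and 8.74 ± 1.27 (SD, n = 4 each), a difference of 0.28 (SE 0.59; 95% interval -1.04 to 1.59; limma, adjusted p = 0.995; exact permutation p = 0.83).

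mmu-mir-351 was at 17.45, 17.26, 17.43 and 16.31 in old 1 to old 4 and at 17.58, 18.66, 17.90 and 15.50 in young 1 to young 4. Young 1, young 2 and young 3 were above all 4 old libraries, and young 4 was below them all. The means were 17.11 ± 0.54 and 17.41 ± 1.35 (SD, n = 4 each), a difference of -0.30 (SE 0.62; 95% interval -1.69 to 1.09; limma, adjusted p = 0.995; exact permutation p = 0.743). Single libraries of both groups decided this value. Without young 4 the difference was -0.93 (SE 0.38, unadjusted p = 0.0402, adjusted p = 0.568 in limma), without old 4 it was -0.03, without young 3 it was -0.13 and without young 2 it was 0.12.

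The distal hairpin mmu-mir-542 was at 5.97, 6.71, 6.06 and 4.83 in old 1 to old 4, against 5.44, 6.94, 6.84 and 4.40 in young 1 to young 4. Old 4 and young 4 were its lowest libraries, 1 in each group. The means were 5.89 ± 0.78 and 5.91 ± 1.21 (SD, n = 4 each), a difference of -0.01 (SE 0.67; 95% interval -1.51 to 1.49; limma, adjusted p = 0.995).

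The 450a and 450b hairpins were the lowest members and differed from each other in course. mmu-mir-450a-2 was at 3.51, 3.74, 4.05 and 1.79 in old 1 to old 4, against 2.12, 4.53, 4.61 and 2.47 in young 1 to young 4. Old 4, young 1 and young 4 were below the other 5. Counting error leaves this grouping open: the Poisson intervals of young 4 (15 reads, 8.4 to 24.74) and old 1 (22 reads, 13.79 to 33.31) overlap. The difference of mmu-mir-450a-2 was -0.16 (SE 0.77; 95% interval -1.88 to 1.56; limma, adjusted p = 0.995). mmu-mir-450a-1, below the filter, was at 3.23, 3.84, 2.74 and 2.71 in old 1 to old 4, against 2.55, 3.36, 4.26 and 2.06 in young 1 to young 4, again with overlapping groups and with young 4 lowest. Its means were 3.13 ± 0.53 and 3.06 ± 0.96 (SD, n = 4 each; exact permutation p = 0.857).

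On the deposited scale, mmu-mir-450b departed from the others by its narrow range. It was at 5.26, 4.40, 5.34 and 4.74 in old 1 to old 4, against 4.22, 4.83, 5.34 and 4.65 in young 1 to young 4, and young 4 was not among its lowest 2 libraries. In young 4 it stood 0.20 below its own mean, where the median of all 359 miRNAs stood 0.58 above its mean. Against that median, young 4 was thus low for mmu-mir-450b as well. Its range of 1.12 was smaller than that of 323 of the 359 miRNAs compared, while that of mmu-mir-351, 3.16, was exceeded by 88. The difference was 0.18 (SE 0.44; 95% interval -0.82 to 1.17; limma, adjusted p = 0.995).

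**Figure D2:**
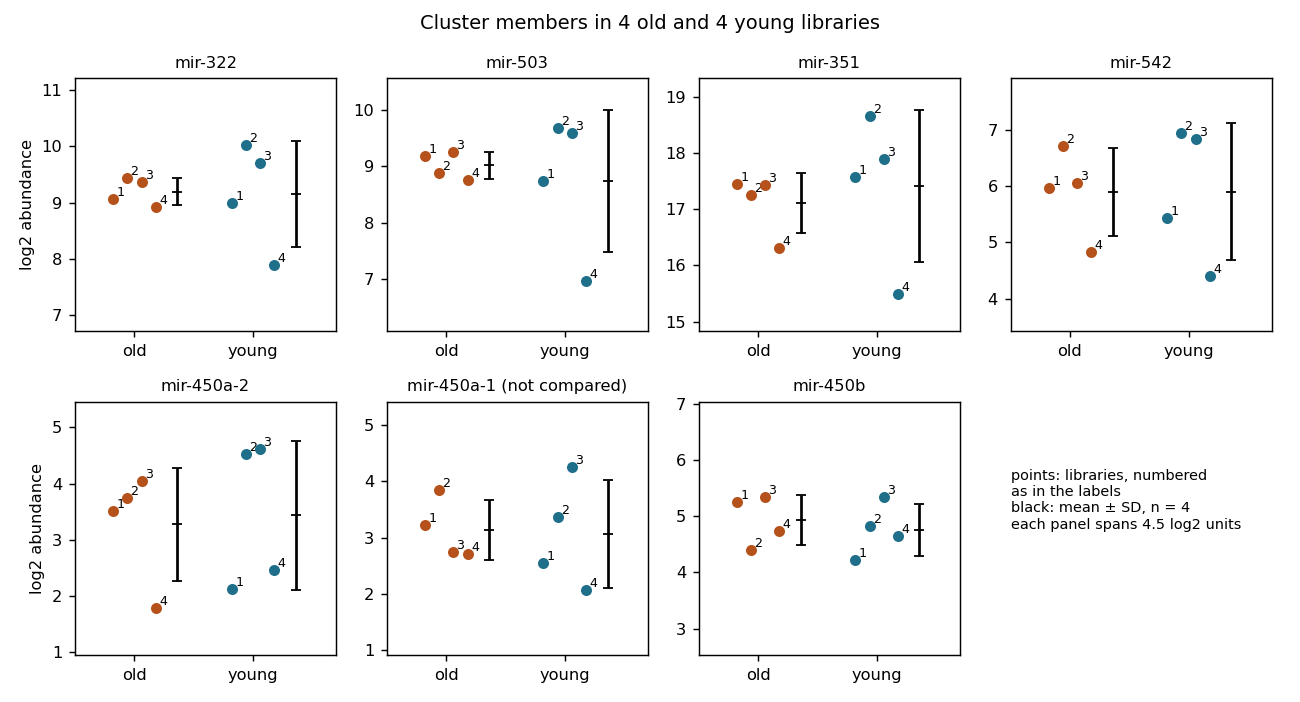
Log2 abundance of the 7 hairpins in each old and young library (points, numbered as in the labels), with the mean ± SD of 4 libraries in black. In mir-322, mir-503, mir-351, mir-542 and mir-450a-1 the lowest point is young 4, while mir-450b shows no such gap.

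Over the cluster, 3 of the 6 compared members were higher and 3 lower in old mice, with a median difference of 0.01, against -0.05 over all 359 miRNAs. None passed an adjusted p of 0.05 in limma (0 of 6 members, and 0% of 359 miRNAs; 4 of the 359 and 0 members had an unadjusted p under 0.05). The groups overlapped in all 7 members, as in nearly all miRNAs (0.836% of the 359 did not overlap). The intervals above reach beyond 1 log2 unit in at least 1 direction for each of the 6, so these libraries do not bound the differences more closely than that. Each member's direction turned when some single library was left out: mmu-mir-322 without old 2, old 3, young 1 or young 4, mmu-mir-503 without young 4, mmu-mir-351 without young 2, and mmu-mir-542 and mmu-mir-450a-2 without old 4, young 2 or young 3. mmu-mir-450b turned without young 1, and mmu-mir-450a-1 without old 2, young 1 or young 4. Without young 4, 5 of the 6 were lower in old mice, with a median of -0.43. The labels number 1 mouse per library and say nothing of when or how the cells were prepared, so p-values measure the spread between these libraries.

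**Figure D3:**
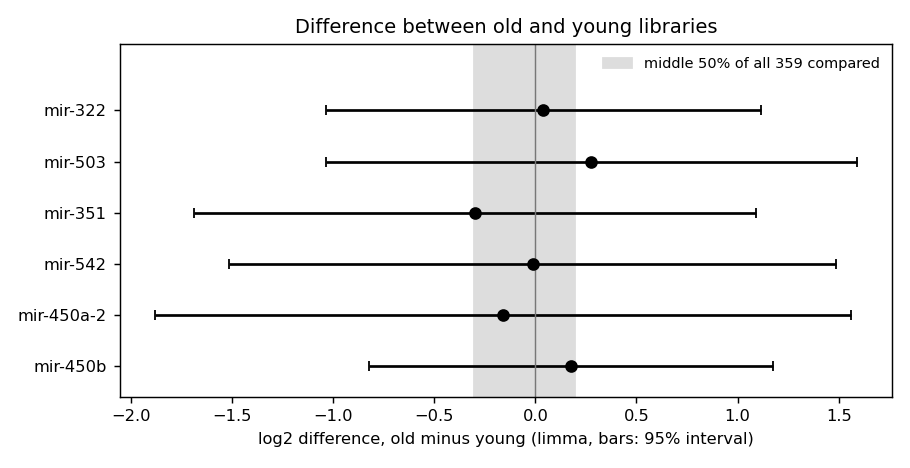
Log2 difference, old minus young, for the 6 compared members, with 95% intervals from limma. Each interval spans 0, and the grey band holds the differences of all 359 miRNAs between their lower and upper quartiles.

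Within each age group the libraries lay further apart than the group means did. Averaged over the 6 compared members after centring each on its own mean, the cluster stood at 0.17, 0.17, 0.35 and -0.68 in old 1 to old 4 and at -0.39, 0.88, 0.76 and -1.26 in young 1 to young 4. The old libraries averaged 0.002 ± 0.46 and the young ones -0.002 ± 1.01 (SD, n = 4 each), and no test was made of this average. All 6 members were below their own mean in old 4 and young 4, and all 6 were above it in old 3 and young 3. The libraries of each of these pairs share a number, and the labels do not say whether a number marks a shared preparation. The main fit leaves the number out. Young 4 was the lowest of the 8 libraries for 4 of the 6 compared members, against 4.74% of the 359 miRNAs (17 in all). Set against the median of all miRNAs in the same library, the cluster was at -1.84 in young 4, -1.03 in old 4, -0.06 in young 1, 0.24 to 0.45 in the other old libraries, and 0.78 and 0.94 in young 2 and young 3. The SD was larger in young than in old libraries for 6 of 6 members, as it was for 239 of 359 miRNAs. The median ratio of the SDs was 2.02 for the members and 1.30 for all.

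**Figure D4:**
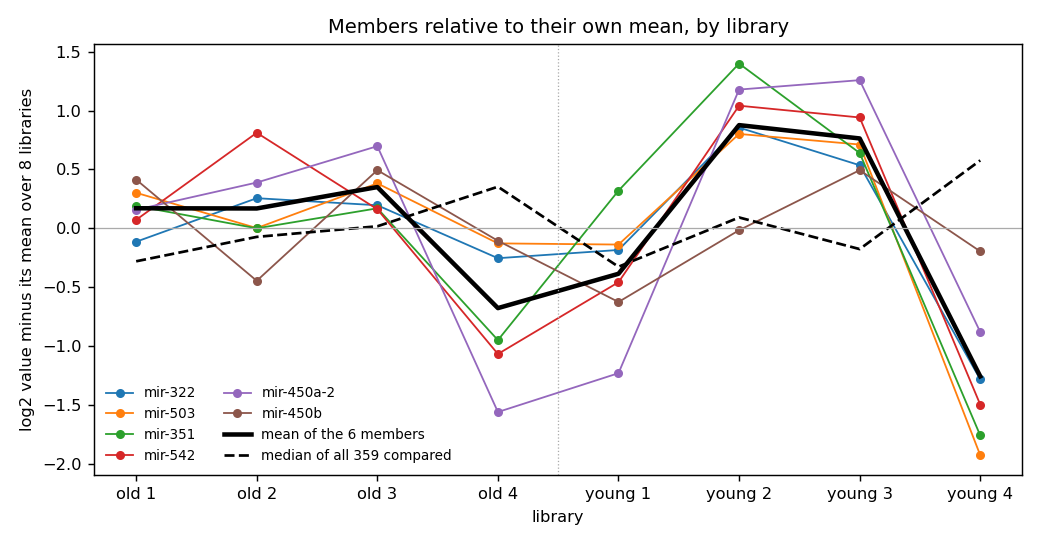
Log2 value of each compared member minus its mean over 8 libraries (thin lines, which only join values of 1 member), the mean of the 6 members (thick line) and the median of all 359 miRNAs (dashed). The cluster is lowest in young 4 (-1.26) and old 4 (-0.68), the libraries in which the dashed line is highest (0.58 and 0.35).

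On the deposited scale the members ran together over libraries, except for mmu-mir-450b. With mmu-mir-322, Pearson's r over the 8 libraries was 0.95 for mmu-mir-503, 0.92 for mmu-mir-351 and 0.92 for mmu-mir-542, and 0.74 and 0.77 for mmu-mir-450a-2 and mmu-mir-450a-1 (Spearman's rho 0.91, 0.76, 1, 0.88 and 0.88). mmu-mir-450b had r of 0.24 to 0.59 with the other 6. These values share libraries and scaling and are a description. The low counts of the 450a hairpins also enter them.

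Ratios within the cluster, which cancel whatever scales a whole library, were compared between the groups as well. mmu-mir-503 minus mmu-mir-322 averaged -0.18 ± 0.28 over old and -0.42 ± 0.36 over young mice (SD, n = 4 each), with young 4 lowest at -0.94 (exact permutation p = 0.371). mmu-mir-351 minus mmu-mir-322 averaged 7.92 ± 0.42 over old and 8.26 ± 0.47 over young mice, with old 4 at 7.39 and young 4 at 7.61 the lowest (exact permutation p = 0.314). Over all 6 ratios to mmu-mir-322 the adjusted p was 0.943 (Benjamini-Hochberg over 6), with differences from -0.34 to 0.24. Without young 4 the difference of the mmu-mir-503 ratio went from 0.24 to 0.06, that of the mmu-mir-351 ratio from -0.34 to -0.55 and that of the mmu-mir-450b ratio from 0.14 to 0.52. With 4 against 4 libraries, no p below 0.0286 can be reached.

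Outside the cluster, the 5 miRNAs whose course over the 8 libraries was most like the mean of its members lay in introns of Myh3, Myh7b, Myh7 and Arpp21 and in an exon of Cherp. They were picked by Pearson's r among 353 compared precursors, so no p is given; the median r was -0.35, and 4 exceeded 0.9. mir-6923, in an intron of the embryonic myosin heavy chain gene Myh3, had r = 0.94 (rho 0.95). It was at 7.61, 7.41, 7.88 and 5.17 in old 1 to old 4, against 7.42, 8.43, 9.02 and 4.85 in young 1 to young 4, with old 4 and young 4 apart below the other 6. mir-499, in an intron of the slow myosin gene Myh7b, had r = 0.93 (rho 0.79). It was at 4.32, 4.60, 3.95 and 1.60 in old 1 to old 4, against 3.45, 4.44, 5.42 and 0.36 in young 1 to young 4. mir-208b, in an intron of the slow myosin gene Myh7, had r = 0.90 (rho 0.90). It was listed at 0 in old 4 and young 4 and at 0.38 in young 1, against 3.80 to 4.57 in the other 5. Near the floor of 0 a value rests on few reads, which limits the r of mir-208b and of mir-499.

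The remaining 2 of the 5 nearest were mir-128-2 in an intron of Arpp21 (r = 0.93, rho 0.88) and mir-7068 in an exon of Cherp (r = 0.87, rho 0.90). mir-128-2 ran closest to mmu-mir-322 itself (r = 0.96, rho 0.98), at 9.18, 9.70, 9.61 and 8.95 in old 1 to old 4, against 9.52, 10.62, 10.44 and 8.15 in young 1 to young 4. The 3 nearest to mmu-mir-351 were mir-128-2, mir-6923 and mir-499 (r = 0.94, 0.92 and 0.88), and the same 3 were nearest to mmu-mir-322. Without old 4 and young 4, the libraries farthest out, r with the cluster mean was 0.85 for mir-6923, 0.81 for mir-128-2, 0.74 for mir-499, 0.79 for mir-208b and 0.92 for mir-7068. After the median of all miRNAs was subtracted from each library these 5 still ranked 1 to 5, with r from 0.90 to 0.98. None of the 5 passed the test between old and young mice (limma, adjusted p = 0.995 for each).

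**Figure D5:**
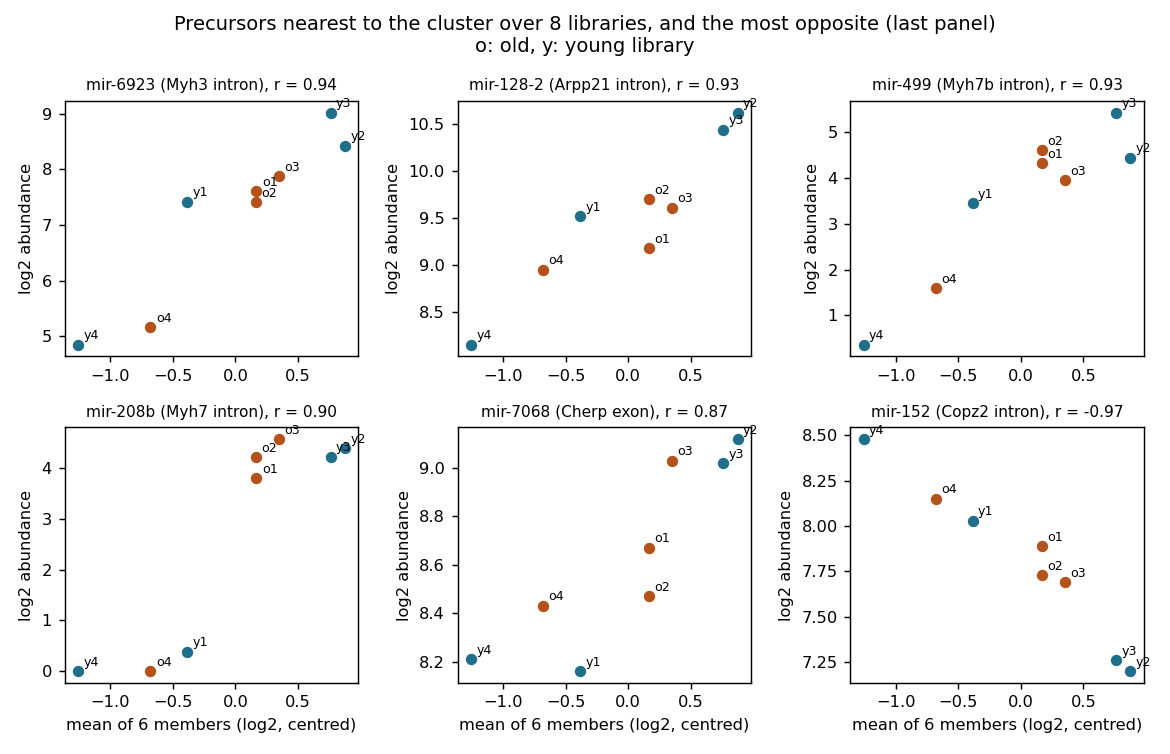
Log2 abundance of the 5 miRNAs with the highest r with the mean of the 6 members, and of mir-152, the most opposite, against the centred mean of the 6 members (o, old; y, young; 1 point per library). Old 4 and young 4 lie at the low end for mir-6923, mir-499 and mir-208b; the r of mir-152 was -0.97 and fell in size to -0.38 after the median of all miRNAs was subtracted.

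In the list of muscle miRNAs most members ran with the cluster. Of 8 compared members, 4 were higher and 4 lower in old mice, 0 passed the test, and young 4 was the lowest library in 5. Their r with the cluster mean had a median of 0.77, from -0.05 for mir-133b to 0.93 for mir-499. The muscle-specific mir-206 had r = 0.71, and mir-133a-1 and mir-133a-2, copies of 1 miRNA, 0.83 each. mir-486, the most abundant of the list at 21.35 on average, had r = 0.37 (it shares its locus with mir-3107, and how reads were split between them is not given in the labels), and mir-378a had 0.01. Beside the 4 members, the 17 compared miRNAs lowest in young 4 were mir-206, mir-133a-1, mir-133a-2, mir-486, mir-3107, mir-499, mir-6923, mir-128-2, mir-296, mir-298, mir-483, mir-758 and mir-1968. Those outside the muscle list could lie as far below the rest: mir-298 was at 9.58 in young 4 and at 11.28 or more elsewhere, and mir-296 at 5.02 and at 6.55 or more. In bulk RNA, fewer cells that express a miRNA and less of it per cell cannot be told apart.

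The seed relatives outside the cluster did not rank among the miRNAs nearest to it. Of the miR-15 and miR-16 family, 5 of 8 listed precursors were compared, and all 5 had a negative r with the cluster mean, from -0.81 for mir-15b to -0.38 for mir-15a. Of the 8, mir-497b, which was not compared, has no mature name with the seed of miR-322-5p. A negative r was common, at 241 of 353 miRNAs (68.3%) with a median of -0.35, and mir-15a and mir-497 (-0.39) were close to that median. mir-15b was at 10.71, 11.41, 11.91 and 12.95 in old 1 to old 4, against 12.08, 10.85, 11.30 and 12.62 in young 1 to young 4. Old 4 and young 4, where mmu-mir-322 was lowest in each group, were its highest, and these are also the libraries in which the median of all 359 miRNAs was highest. All 5 had a higher mean in old mice, as did 165 of the 359 miRNAs. Their median difference was 0.15, and 0 passed the test. On the per-length scale mir-15b exceeded mmu-mir-322 by mean (11.73 against 9.18), and mir-16-1 at 9.33 was near it. mir-16-1 and mir-16-2 give the same mature miRNA and ran in parallel.

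The relatives of mmu-mir-351 stood highest in young 4, where it was lowest. mir-125a was at 16.99, 16.75, 16.66 and 16.93 in old 1 to old 4, against 17.04, 17.23, 16.47 and 17.87 in young 1 to young 4. Young 4 was the highest library for mir-125a, mir-125b-1 and mir-125b-2, as it was for 143 of the 359 miRNAs (39.8%). mmu-mir-351 was above each of these 3 in old 1 to old 3 and in young 1 to young 3, and below each of them in old 4 and young 4. Of the 3, 1 was higher and 2 lower in old mice, with a median of -0.03 and 0 past the test.

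The miRNAs of the cluster from mir-17 to mir-92a-1, known for promoting proliferation, also had negative r with the mean of the 6 members. All 5 of the 6 listed precursors that were compared were highest in young 4, with r of -0.80 to -0.57 with the cluster mean, and 0 passed the age test (3 higher, 2 lower, median 0.17). mir-92a-1, the most abundant, was at 18.14, 18.71, 18.78 and 19.02 in old 1 to old 4, against 18.69, 18.63, 18.61 and 19.75 in young 1 to young 4. mir-17 was at 8.52, 9.53, 9.40 and 9.68 in old 1 to old 4, against 8.24, 8.87, 8.89 and 10.47 in young 1 to young 4. As young 4 was the highest library of so many miRNAs, these values are not particular to this list.

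The other X-linked miRNAs were near the background of all miRNAs in these measures. Of 83 other X-linked precursors in the file, 21 were compared, and young 4 was the lowest library in 0 of them (4.74% of all 359) and the highest in 8 of them (39.8% of all 359). Their median r with the cluster mean was -0.36, close to the -0.35 of all miRNAs, and ranged from -0.84 to 0.70. The most abundant, mir-501, mir-221 and mir-222, averaged 14.49, 14.30 and 14.05, with r of 0.47, -0.84 and -0.51. Of the 21, 10 were higher and 11 lower in old mice, and 0 passed the test.

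Markers of other cell types were set beside the cluster, and their part in its values was not tested. The summed linear value of the 6 listed fibroblast and smooth muscle markers was 41938 to 58764 in old and 24441 to 51299 in young libraries, with 1 of the 6 at 0 in all. All 5 compared, among them the parallel mir-199a-1 and mir-199a-2, had a higher mean in old mice, as did 165 of the 359 miRNAs. Of the 5, 0 passed the test. Their r with the cluster mean ran from -0.82 for mir-145a to 0.46 for mir-143, the most abundant of them, with a median of -0.59 against -0.35 over all miRNAs. The 2 endothelial hairpins mir-126a and mir-126b summed to 21.3 to 45.7 in old and 17.6 to 77.6 in young libraries, and were highest in young 4. The 5 blood and immune markers summed to 8.28 to 22.2 in old and 3.91 to 19.97 in young libraries, with 3 at 0 throughout. The 6 epithelial markers summed to 30.1 to 264 and 59.3 to 174, nearly all from mir-205. The 6 neural hairpins summed to 4.59 to 22.4 and 7.09 to 17.4, and 0 of them passed the filter.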

How the data were processed

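The authors deposited log2 values with 2 decimals, floored at 0, for 1181 precursors in 8 libraries. Per the submitters' processing notes, BWA and mm10 were used. As to versions, trimming and reads with more than 1 match, this was not given in the sources used here. Library size and reads were recovered from the steps of low values (up to 12 reads, tolerance 0.1 of a read): 99.1% to 100% of 109 to 206 values per library came out whole.

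The deposited log2 values were fitted with limma 3.58.1 (R 4.3.3, eBayes with trend) on all 359 compared precursors, old minus young, two-sided, with Benjamini-Hochberg adjustment and a threshold of 0.05. The fit was tested on simulated data, drawn independently for each precursor and without shifts shared by a library. That test cannot show how the fit behaves where libraries have such shifts. Exact permutation tests used 70 arrangements. Poisson intervals used scipy 1.17.1, permutations and tables pandas 2.3.3 and numpy 2.4.6, and figures matplotlib 3.10.9, all under Python 3.11.15.

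Members and lists were chosen with earlier results of these data known. Named miRNAs are the 7 members, the 5 nearest by Pearson's r to their mean, the 3 nearest to mir-351 and to mir-322, the most abundant of each list, and the 3 most abundant other X-linked ones; others named were picked after their values were seen. Sequences and positions are from RefSeq GRCm38.p6, the build of mm10, with 1176 of 1181 precursors and 7 of 7 members matched by name; hosts are from GENCODE M21. Pseudocounts, filters, rescalings, weights, a replicate block and left-out libraries were tried.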

Additional observations from a re-analysis of the deposited data

Results flagged for a closer look

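In 76 groups of 4 values, of members, their ratios and named miRNAs, 4 held 1 library far from the other 3; chance gives about 1 in 20. For mmu-mir-351, old 4 was at 16.31 below the other old libraries. mir-208b was listed at 0 in old 4, below the other old libraries. mir-92a-1 was at 19.75 in young 4, above the other young libraries. mir-126a was at 4.34 in old 4, above the other old libraries.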

How the results depend on the processing

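0 precursors passed the threshold in limma in 19 of 20 alternatives. Without both old 3 and young 4, 33 passed, and none of the 33 was a member. In deviations from their group means these 2 libraries had an r of -0.70, the lowest of any old and young pair. The choice of this pair thus bears on the count, and the 33 are not a neutral check. Leaving out 1 library each moved the differences, old minus young, from -0.38 to 0.33 for mmu-mir-322, -0.32 to 0.59 for mmu-mir-503, -0.93 to 0.12 for mmu-mir-351, -0.51 to 0.34 for mmu-mir-542, -0.60 to 0.33 for mmu-mir-450a-2, -0.26 to 0.47 for mmu-mir-450a-1 and -0.005 to 0.37 for mmu-mir-450b. It moved the cluster mean from -0.42 to 0.30. For ratios to mmu-mir-322 the ranges were -0.25 to 0.21 for mmu-mir-542, -0.58 to 0.20 for mmu-mir-450a-2, -0.16 to 0.25 for mmu-mir-450a-1 and -0.13 to 0.52 for mmu-mir-450b. Other reversals follow, none past the threshold; the cause was not tested. With array weights mmu-mir-322 was at -0.27 and mmu-mir-503 at -0.16. Quantile normalization gave 0.033 for mmu-mir-351, 0.25 for mmu-mir-542 and 0.16 for mmu-mir-450a-2. TMM and median-ratio rescaling gave 0.025 and 0.02 for mmu-mir-542, and a pseudocount of 10 gave -0.007 for mmu-mir-450a-1. Without both old 4 and young 4 the values were -0.29 for mmu-mir-322, -0.23 for mmu-mir-503, 0.013 for mmu-mir-450a-2 and -0.12 for mmu-mir-450a-1, and the ratios were 0.13 for mmu-mir-542 and 0.30 for mmu-mir-450a-2. Without both old 3 and young 4 they were -0.44 for mmu-mir-322, -0.40 for mmu-mir-503 and -0.13 for mmu-mir-450a-1. Same-numbered libraries had r of -0.06, 0.44, 0.66 and 0.58, against -0.14 on average for the other pairs, and 6 of 8 libraries had their highest r with their own number, a hint from the data and not from the labels. The labels name no pairing and 1 pair had no positive r, so the main fit did not treat the numbers as pairs. That does not show that same-numbered libraries share nothing. With the replicate block 0 precursors passed, 39 against 4 had an unadjusted p under 0.05, the smallest adjusted p was 0.11 against 0.995, and the difference of mmu-mir-351 stayed at -0.30 (adjusted p = 0.939). The ratio of mmu-mir-351 to mmu-mir-322 was lower in the old library for 4 of 4 numbers, with differences of -0.80 to -0.13 (exact sign-flip permutation with the replicate block, p = 0.125, the smallest that 4 pairs allow). This was the most extreme of the ratios to mmu-mir-322. For the others the same sign-flip test gave p of 0.375 or more. Quantile normalization also moved the median of all miRNAs from -0.05 to 0.09 and put 6 of 6 members higher in old mice. The filter on a mean of at least 100 left no value for mmu-mir-542, mmu-mir-450a-2 and mmu-mir-450b. Reads limit the 450a hairpins most.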
